A study of Mus musculus with 12 samples.

Results

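The 6 Schlafen genes Slfn1, Slfn2, Slfn4, Slfn5, Slfn8 and Slfn9 were followed in nuclear RNA of mouse spinal cord microglia after injury. They were taken by name from the deposited table and are 6 of its 49585 genes. They were picked with their measured levels in these libraries in view, so their levels and fold changes are given as a description, with no test drawn from them. RNA was measured in 12 libraries from C57BL/6 mice, 3 each of sham-operated mice and of mice 3, 7 and 14 days after spinal cord injury. Sham mice are labelled with day 7. Cord of 3 animals, cut on both sides of the injury site, went into each library. In sham and injured mice alike, an antibody and magnetic beads captured the nuclei that carry GFP, a green fluorescent marker protein. The labels call these nuclei microglia-specific and do not name the allele behind GFP.

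Schlafen genes encode a family of proteins that interferons induce in macrophages and other immune cells. Several family members bind or cleave transfer RNA and restrain protein synthesis, growth or viral replication. In the mouse the family has short forms (Slfn1 and Slfn2), intermediate forms (Slfn3 and Slfn4) and long forms that carry a helicase-like region (Slfn5, Slfn8, Slfn9 and others). In GENCODE M21 on GRCm38, 10 of the 11 genes with a Slfn symbol form a cluster of 344386 bases on chromosome 11, at chr11:82942341-83286726. The exception is Slfnl1 on chromosome 4. Slfn5 (ENSMUSG00000054404) lies at chr11:82951349-82964840 on the plus strand. Slfn9 (ENSMUSG00000069793) and Slfn8 (ENSMUSG00000035208) follow on the minus strand at chr11:82978390-82991830 and chr11:83002158-83020810. Slfn2 (ENSMUSG00000072620), Slfn1 (ENSMUSG00000078763) and Slfn4 (ENSMUSG00000000204) are on the plus strand at chr11:83065112-83070678, chr11:83116849-83122670 and chr11:83175186-83190216.

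The promoters are shown because interferon-responsive genes carry a recognisable element there. The interferon-stimulated response element, which STAT and IRF proteins bind, is built on repeated GAAA letters. A pair of GAAA letters with any 2 bases between them (GAAA, N, N, GAAA) was searched on both strands of RefSeq windows (GRCm38.p6) that run from 250 bases before to 50 bases after the start site. It occurred in the windows of 3 of 6 members, namely Slfn5, Slfn8 and Slfn9. It occurred in 12 of 20 interferon-stimulated genes with a window, in 1 of 15 neighbouring genes with a window and in 3.99% of all 27025 genes. The matches in Slfn8 and Slfn9 have the same letters, so the 3 matches are not independent. Whether the element acts in these nuclei was not tested, and nothing is read from the count of members. The stretches from 160 to 21 bases before the start site follow for these 3 genes, read along each gene's own strand, with the matching pair, or its reverse complement, in capitals.
Slfn5: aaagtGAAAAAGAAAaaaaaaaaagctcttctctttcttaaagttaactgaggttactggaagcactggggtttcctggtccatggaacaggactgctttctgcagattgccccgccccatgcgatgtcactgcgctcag
Slfn8: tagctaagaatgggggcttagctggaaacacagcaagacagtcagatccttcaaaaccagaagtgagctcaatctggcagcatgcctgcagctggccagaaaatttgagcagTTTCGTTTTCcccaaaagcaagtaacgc
Slfn9: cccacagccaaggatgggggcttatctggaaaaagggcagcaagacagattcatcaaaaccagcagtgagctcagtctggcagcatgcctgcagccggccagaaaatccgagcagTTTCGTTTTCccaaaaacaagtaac
The stretches lie at chr11:82951942-82952081, chr11:83020831-83020970 and chr11:82991851-82991990. The Slfn8 and Slfn9 windows share a run of 20 bases, tctggcagcatgcctgcagc, which none of 32840 windows of genes without a Slfn symbol holds on either strand. In both of these genes the element is read on the other strand, 48 to 39 bases before the start site in Slfn8 and 45 to 36 bases before it in Slfn9. Slfn8 has another RefSeq start site further along the gene, and the same element lies 136 to 127 bases before that site. The Slfn8 stretch above is counted from the first of these sites. In Slfn5 it lies 155 to 146 bases before the start site, at the edge of a run of A. The RefSeq start of Slfn5, base 82952102, lies inside the GENCODE gene.

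The windows of Slfn1, Slfn2 and Slfn4 held no such pair. They share a run of 11 bases that was noticed after the sequences were seen, and it is in capitals in the same stretch of each gene.
Slfn1: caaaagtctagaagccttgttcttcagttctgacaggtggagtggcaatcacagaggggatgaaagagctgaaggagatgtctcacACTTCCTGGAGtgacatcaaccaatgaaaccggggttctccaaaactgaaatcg
Slfn2: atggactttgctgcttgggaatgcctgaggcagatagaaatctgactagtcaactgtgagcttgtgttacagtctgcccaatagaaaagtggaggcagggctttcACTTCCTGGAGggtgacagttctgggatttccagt
Slfn4: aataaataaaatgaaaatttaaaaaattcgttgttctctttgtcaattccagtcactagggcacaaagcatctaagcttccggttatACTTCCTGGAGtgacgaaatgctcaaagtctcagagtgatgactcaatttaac
These stretches lie at chr11:83116660-83116799, chr11:83064952-83065091 and chr11:83175026-83175165. The run lies 74 to 64, 55 to 45 and 73 to 63 bases before the start site of Slfn1, Slfn2 and Slfn4, and 21 of 32840 windows of genes without a Slfn symbol hold it on either strand. Its first part holds CTTCCT, the reverse complement of AGGAAG, a core to which the macrophage factor PU.1 binds. AGGAAG was found on either strand in 4 of 6 members (these 3 and Slfn9) and in 38.4% of all genes. The gamma-activated site TTCNNNGAA, bound by STAT proteins, was found in 0 of 6 members, in 5 of 20 interferon-stimulated genes and in 9.55% of all genes. Absence says only that these letters are not in this window.

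Total counts ranged between 4003480 and 10670804 per library, and 18451 genes had enough counts for a test, all 6 members among them. Levels of a gene across libraries are given in CPM, which are counts set relative to the library total and scaled by TMM, and log2 fold changes come from edgeR's quasi-likelihood fit with their standard errors (SE). A gene is called changed where the Benjamini-Hochberg adjusted p is under 0.05. These p-values measure the spread between pools of 3 animals. Sham replicate 4 stood apart in the summed level of 10 astrocyte markers, with 5319 CPM against 656 and 1551 CPM in the other sham libraries. Without it the number of members called was again 6 at 3 days and 1 at 14 days, and 3 in place of 2 at 7 days.

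At 3 days all 6 members were called higher than sham, against 10.9% of all tested genes called higher. Each member was also higher in every 3-day library than in every sham library. The share of all tested genes with such a separation was not computed. Slfn4 moved most and Slfn8 least. At 7 days 2 of 6 members were called higher than sham (Slfn5 and Slfn2), against 4.61% of all genes, and at 14 days 1 of 6 (Slfn5), against 5.02%. Because the members were picked on these levels, nothing is read from these counts. In bulk nuclei, fewer cells expressing a gene and less RNA per cell cannot be told apart.

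**Figure D1:**
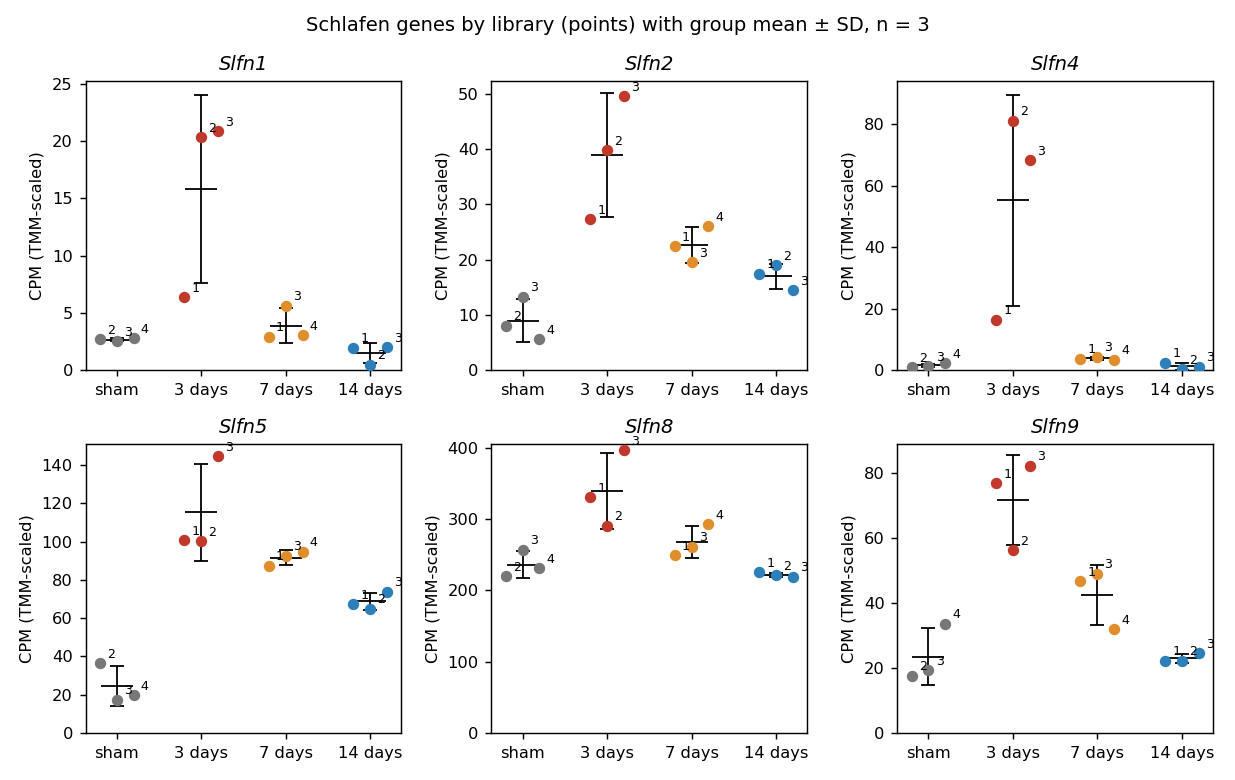
Level of each Schlafen gene in CPM (TMM-scaled, linear axes starting at 0) in the 12 libraries, with points numbered by replicate and bars giving the group mean ± SD (n = 3). Slfn4 and Slfn1 stand high at 3 days with replicate 1 lowest, whereas the 3 Slfn5 libraries at 14 days, between 65.0 and 74.0 CPM, still lie above all sham libraries.

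Among the short forms, Slfn1 encodes a protein that slows growth of thymocytes when overexpressed in mice. Slfn1 stood at 2.73, 2.52 and 2.80 CPM in sham replicates 2, 3 and 4, at 6.38, 20.3 and 20.9 CPM in 3-day replicates 1, 2 and 3, at 2.93, 5.64 and 3.08 CPM in 7-day replicates 1, 3 and 4, and at 1.96, 0.468 and 2.01 CPM in 14-day replicates 1, 2 and 3. The 3-day libraries were all above the others, and the 14-day libraries were all below sham. Its log2 fold change against sham was 2.57 ± 0.51 at 3 days (called), 0.53 ± 0.52 at 7 days and -0.81 ± 0.58 at 14 days (both not called). The 14-day levels rest on 13, 2 and 9 counts.

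Slfn2 is required in mice for the quiescence and survival of T cells and monocytes, and its product protects transfer RNA from cleavage in activated T cells. It stood at 8.02, 13.3 and 5.60 CPM in sham libraries, at 27.3, 39.8 and 49.6 CPM at 3 days, at 22.4, 19.6 and 26.1 CPM at 7 days and at 17.5, 18.9 and 14.5 CPM at 14 days. Every injured library at each time was above every sham library. Its log2 fold change against sham was 2.12 ± 0.31 at 3 days and 1.33 ± 0.31 at 7 days (both called), and 0.91 ± 0.31 at 14 days (not called). The 7-day call ended without 7-day replicate 4 (1.19), and the 14-day value was called without sham replicate 3 (1.29).

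Slfn4, an intermediate form that interferon induces in mouse macrophages and whose forced expression disturbs monocyte development, was at 7, 6 and 8 counts in sham libraries. There were 72, 535 and 712 counts in 3-day replicates 1, 2 and 3, 18, 25 and 26 counts at 7 days, and 16, 1 and 5 counts at 14 days. In CPM these were 1.06, 1.37 and 2.24 for the sham libraries, 16.4, 81.2 and 68.4 for day 3, 3.77, 4.40 and 3.48 for day 7, and 2.41, 0.234 and 1.11 for day 14. All 3-day and all 7-day libraries lay above sham, while the 14-day libraries overlapped with sham. The log2 fold change against sham was 5.21 ± 0.62 at 3 days (37-fold, called), rank 20 from the highest of 18451 tested genes. It was 1.37 ± 0.66 at 7 days and -0.12 ± 0.76 at 14 days (both not called). The 14-day value turns on single libraries, at -1.09 without 14-day replicate 1 and 0.31 without 14-day replicate 2.

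The long form Slfn5, which in human cells is induced by type I interferon and acts with STAT proteins at interferon-responsive promoters, was at 36.3, 17.4 and 19.6 CPM in sham libraries. It was at 100.9, 100.4 and 144.7 CPM at 3 days, 87.4, 92.6 and 94.8 CPM at 7 days, and 67.4, 65.0 and 74.0 CPM at 14 days. No 2 of the 4 groups overlapped, and the order was 3 days, 7 days, 14 days, sham. The log2 fold change against sham was 2.22 ± 0.25 at 3 days, 1.89 ± 0.25 at 7 days and 1.47 ± 0.25 at 14 days, all called.

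Slfn9, another long form, was at 17.6, 19.2 and 33.6 CPM in sham libraries, with the highest value in sham replicate 4. It was at 76.8, 56.1 and 82.1 CPM at 3 days, 46.7, 49.0 and 32.0 CPM at 7 days and 22.2, 22.2 and 24.5 CPM at 14 days. The 3-day libraries lay above all others, and the 7-day and 14-day libraries each overlapped with sham. The log2 fold change against sham was 1.62 ± 0.26 at 3 days (called), 0.87 ± 0.26 at 7 days and -0.02 ± 0.27 at 14 days (both not called). Without sham replicate 4 the 7-day value was 1.20 and called, and the 14-day value was 0.31.

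Slfn8, the long form next to Slfn9, was the most abundant member, at 219.9, 257.2 and 231.0 CPM in sham libraries. It was at 330.7, 290.7 and 397.1 CPM at 3 days, 249.3, 261.7 and 293.4 CPM at 7 days, and 225.6, 221.1 and 219.6 CPM at 14 days. The 3-day libraries lay above sham but reached into the 7-day range. The log2 fold change against sham was 0.52 ± 0.15 at 3 days (called), 0.18 ± 0.15 at 7 days and -0.09 ± 0.15 at 14 days (both not called). The 3-day call ended without sham replicate 2 (0.45), without 3-day replicate 1 (0.52) or without 3-day replicate 3 (0.38), and in a fit of the 2 groups alone (0.50).

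Between times after injury, Slfn4 and Slfn1 were lower at 7 days than at 3 days and were called, which is 2 of 6 members against 7.52% of all genes called lower. Slfn4 fell by 3.84 ± 0.54 and Slfn1 fell by 2.04 ± 0.48 on the log2 scale. The other 4 were not called, with log2 fold changes of -0.33 ± 0.24 for Slfn5, -0.34 ± 0.15 for Slfn8, -0.76 ± 0.25 for Slfn9 and -0.78 ± 0.29 for Slfn2. The Slfn1 call ended without 3-day replicate 2 (-1.84), 3-day replicate 3 (-1.78) or 7-day replicate 1 (-1.88), and without sham replicate 4 the number called was 4, with Slfn9 at -0.73 and Slfn2 at -0.76. Slfn9 was also called without sham replicate 2 (-0.74). At 14 days against 3 days, 5 of 6 members were called lower, against 5.14% of all genes. Slfn4 fell by 5.33 ± 0.62, Slfn1 fell by 3.38 ± 0.53, Slfn9 fell by 1.64 ± 0.26, Slfn2 fell by 1.20 ± 0.29 and Slfn8 fell by 0.61 ± 0.15. The fall of Slfn4 ranked 18450 from the highest of 18451 tested genes, and was -6.27 without 14-day replicate 1. Slfn5 was not called, at -0.75 ± 0.24, but was called without sham replicate 2 (-0.74) or sham replicate 4 (-0.73). The count was 3 without 3-day replicate 3 or without any 1 of the 14-day libraries, where Slfn8 (-0.60 to -0.48) and Slfn2 (-1.25 to -0.98) lost the call. Slfn8 also lost it without 3-day replicate 1 (-0.60), and Slfn2 without 3-day replicate 2 (-1.16). From 7 to 14 days edgeR called 0 of 6 members, against 2.19% of all genes in either direction, while 3 had an unadjusted p under 0.05 and DESeq2 called 1. Without sham replicate 2 or sham replicate 4 edgeR called 1 of them, Slfn9, at -0.89 in both cases. These comparisons share libraries with those against sham and are not separate evidence.

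Levels were compared between members in RPKM, which divide the reads of a gene by its length and by the library total. The summed RPKM of the 6 members was 64.5, 84.4 and 63.0 in sham libraries, 135.1, 151.2 and 187.2 at 3 days, 93.2, 96.8 and 114.0 at 7 days and 85.8, 84.5 and 83.6 at 14 days. The part held by Slfn8 alone was 77.9 to 80.1% in sham libraries, 46.9 to 60.5% for day 3, 61.8 to 65.0% for day 7 and 67.5 to 67.8% for day 14. Slfn8 averaged 56.1 RPKM in sham libraries, a level that 3.05% of tested genes exceeded. Slfn4 averaged 13.8 RPKM at 3 days and 0.375 RPKM in sham, and in sham 96% of tested genes were higher. The share of Slfn4 was 3.10, 13.5 and 8.99% of the summed RPKM in 3-day replicates 1, 2 and 3, against 0.387 to 0.800% in sham libraries. Slfn2 and Slfn5 held 12.7% ± 1.67 and 13.5% ± 1.01 at 14 days, against 7.30% ± 2.71 and 5.40% ± 2.57 in sham (SD, n = 3).

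**Figure D2:**
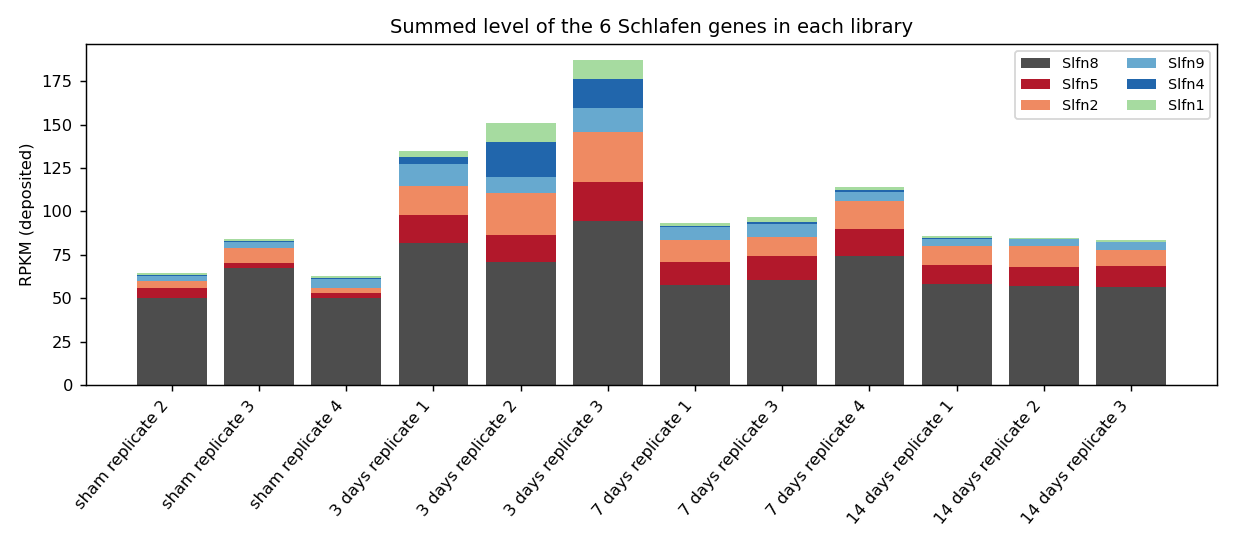
Deposited RPKM of the 6 Schlafen genes stacked for each of the 12 libraries (linear axis from 0, sham first and then by day). The column reaches 187.2 RPKM in 3-day replicate 3 and 63.0 RPKM in sham replicate 4, and Slfn8 is the largest part of every column.

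Other genes of the family were tested as well, and of these Slfn3 and Slfn10-ps share 18.5% and 19.7% of the 50-base windows of their transcripts with other genes, several of them members. Slfn3, the intermediate form next to Slfn4, was at 7.29, 12.6 and 12.6 CPM at 3 days, against 0.757, 1.14 and 2.80 CPM in sham libraries, and no library of the 2 groups overlapped. On the log2 scale it rose by 2.88 ± 0.46 at 3 days (adjusted p = 0.000646, edgeR quasi-likelihood test) and by 1.56 ± 0.47 at 7 days (adjusted p = 0.0489, edgeR). At 14 days its value was 1.31 (edgeR adjusted p = 0.0968). The transcribed pseudogene Slfn10-ps, which lies between Slfn8 and Slfn2, was at 12.98, 19.87 and 21.04 CPM at 3 days, against 7.57, 3.89 and 3.64 CPM in sham. It rose by 1.80 ± 0.37 at 3 days (edgeR adjusted p = 0.00402) and was not called at 7 or 14 days, at 0.60 and 0.90. Against 3 days, Slfn3 fell by 1.31 ± 0.40 at 7 days (edgeR, adjusted p = 0.0423) and by 1.56 ± 0.41 at 14 days (edgeR, adjusted p = 0.0317), and Slfn10-ps fell by 1.20 ± 0.36 at 7 days (edgeR, adjusted p = 0.0387). Slfnl1, on chromosome 4, was not called at any time against sham. Slfn14 and the antisense gene Slfn5os had too few counts to test.

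The genes beside the cluster were followed as well. Of the 10 nearest protein-coding genes wholly outside the cluster on each side, 11 had enough counts. The 1 other protein-coding gene that overlaps the cluster, Unc45b, was not followed. At 3 days Lig3, which encodes a DNA ligase, rose by 0.55 ± 0.17 in log2 units (edgeR test, adjusted p = 0.0345). This was 1 of 11 called higher, a share near the 10.9% of all genes. Lig3 passed in only 7 of 20 alternative settings. The median log2 fold change of the 11 genes was 0.30 at 3 days, against -0.03 over all tested genes and 2.17 over the 6 members. The members were picked with these levels in view, so nothing is read from their distance to the flanking genes. At 7 and at 14 days edgeR called 0 of 11, where 4.61% and 5.02% of all genes were called higher. Of the 11, 2 had an unadjusted p under 0.05 at each time, and DESeq2 called 0 at 7 days and 1 at 14 days. The 7-day count was 1 without sham replicate 2 or 7-day replicate 1, and the 14-day count was 1 without sham replicate 4.

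**Figure D3:**
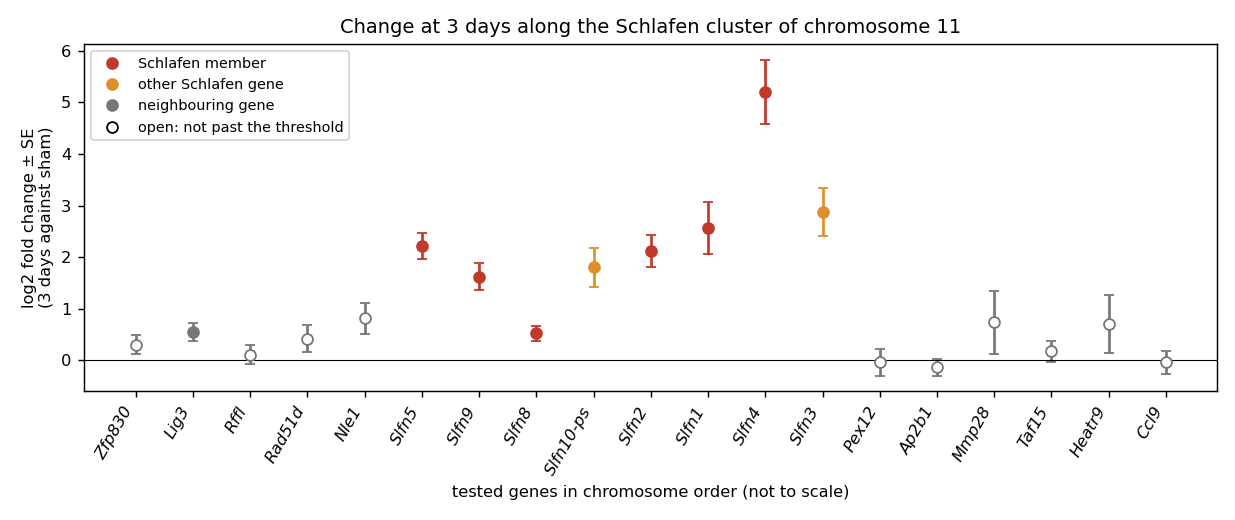
Log2 fold change ± SE at 3 days against sham for the tested genes of the cluster and its flanks, in chromosome order and not to scale. Filled points passed the threshold. All 8 tested Schlafen genes of the cluster are filled, at 0.52 to 5.21. Of the 11 flanking genes Lig3 is, a share near the 10.9% of all tested genes called higher. The members among them were picked with these levels in view.

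Interferon-stimulated genes were followed because interferons also induce Schlafen genes in macrophages. The list was chosen with earlier results of these data known. Whether interferon acted on the members here was not tested. All 28 of 28 listed genes rose at 3 days against sham, with a median log2 fold change of 2.21, against 10.9% of all tested genes called higher. Ifit2, an RNA-binding antiviral protein, rose by 3.61 (edgeR adjusted p = 1.97e-06), Rsad2, which encodes viperin, by 4.43, Irf7, a transcription factor of the interferon response, by 2.71, and Zbp1, a sensor of Z-form nucleic acids, by 3.23. At 7 days 19 rose with a median of 1.02, against 4.61% of all genes called higher. Those with the smallest adjusted p were Irf7 at 2.21, Zbp1 at 2.37, Ifit2 at 2.11 and Ifit3 at 2.37. The count was 12 without 7-day replicate 4. At 14 days 10 rose with a median of 0.82, against 5.02% of all genes called higher. Among them were Ifit2 at 1.62 (edgeR adjusted p = 0.0021), Rsad2 at 1.86, Irf7 at 1.23 and Usp18, an inhibitor of interferon signalling, at 0.95. The count at 14 days was 6, 5 and 4 without 14-day replicates 1, 2 and 3. A fit of the 2 groups alone called 9 at 7 days and 4 at 14 days.

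Transcripts of the ligands were at or near 0. Summed over the 3 libraries of a group, in the order sham, 3, 7 and 14 days, Ifnb1 had 0, 1, 3 and 0 counts and Ifng had 0, 1, 1 and 0 counts. Of 8 ligand genes listed, Ifnk alone could be tested and was called at no time by edgeR or DESeq2, with 0 at an unadjusted p under 0.05. Of 16 tested receptors and signal transducers, 7 rose and 0 fell at 3 days, against 10.9% of all tested genes called higher. Stat2, a subunit of the complex that type I interferon activates, rose by 2.26 ± 0.24 (edgeR adjusted p = 2.4e-05), Socs3, an inhibitor of cytokine signalling, by 2.92 ± 0.52, and Irf9, another subunit of that complex, by 0.71 ± 0.15. At 7 days 3 of 16 rose, among them Irf8 by 0.90 and Stat2 by 0.91, against 4.61% of all genes. At 14 days 1 of 16 rose, Irf8 by 0.77, a share near the 5.02% of all genes called higher.

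Growth arrest is a role given to Slfn1 and Slfn2 in T cells. Of 15 quiescence and growth arrest genes, 2 rose at 3 days, the cell cycle inhibitors Cdkn1a (1.86 ± 0.37) and Cdkn2c (1.93 ± 0.55), and Btg2, an antiproliferative gene, fell by 0.93 ± 0.21. The 2 of 15 that rose are a share near the 10.9% of all tested genes called higher. edgeR called 0 of 15 at 7 days and at 14 days, with 4 and 2 at an unadjusted p under 0.05, and DESeq2 called 0 and 1. All 16 of 16 mitosis genes rose at 3 days with a median log2 fold change of 3.24, against 10.9% of all genes called higher. The smallest adjusted p was that of Cenpe, a kinetochore motor, at 3.58 ± 0.20 (edgeR adjusted p = 8.65e-08). At 7 days 2 of them rose, Cenpe and Cdk1, against 4.61% of all genes. At 14 days 1 of 16 rose, Cenpe by 0.71, a share near the 5.02% of all genes called higher, and Cenpf fell by 1.22. Of 10 tested genes of tRNA cleavage and modification, edgeR called 0 at 3 days, with 4 at an unadjusted p under 0.05, and DESeq2 called 3. Rtcb, the tRNA ligase, rose by 0.84 at 7 days and by 0.69 at 14 days, and Ang, the tRNA-cleaving angiogenin, fell by 0.97 at 14 days. Rtcb was the 1 of 10 that rose at each of these times, where 4.61% and 5.02% of all genes were called higher.

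**Figure D4:**
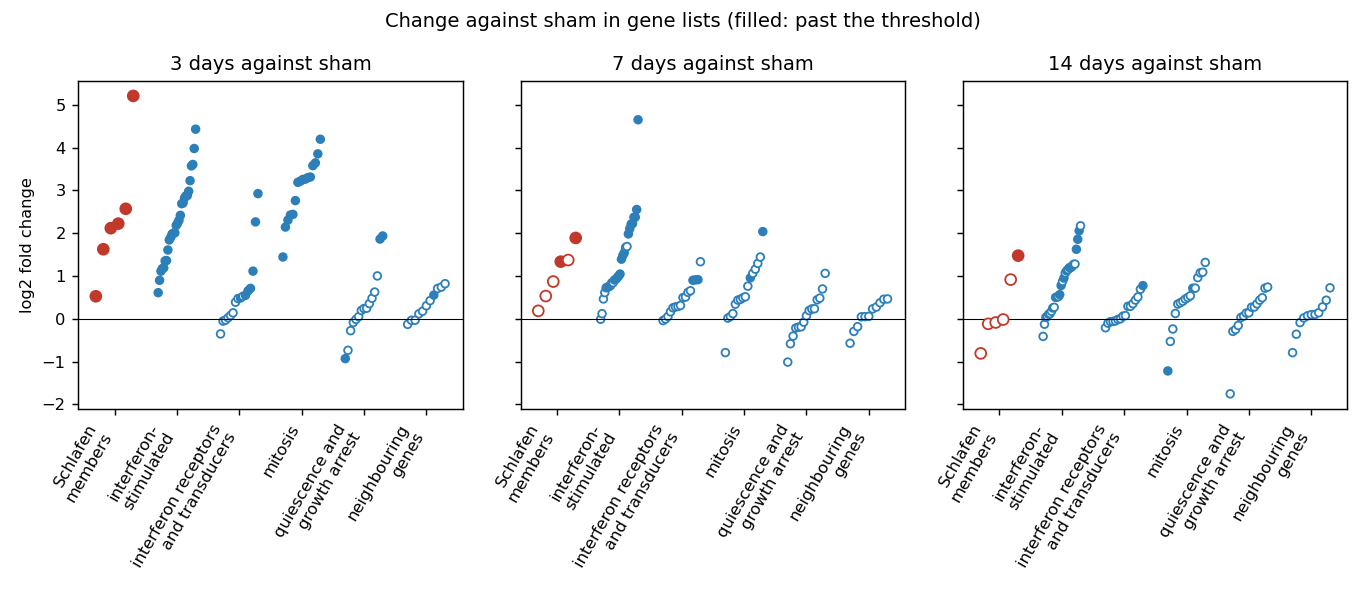
Log2 fold change against sham at 3, 7 and 14 days for the 6 Schlafen genes (red) and for 5 lists of other genes (blue), each point being 1 gene, sorted within its list, and filled where it passed the threshold. All 28 interferon-stimulated and all 16 mitosis genes are filled at 3 days, and at 14 days 10 and 2 of them are.

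Marker lists of other cells went both ways at 3 days. At that time 10.9% of all tested genes were called higher, and 3695 of 18451 were called in either direction. B cell markers fell in 4 of 4 tested, neuron markers in 9 of 12, and border-associated macrophage markers in 3 of 8, with 1 rising. Of T and NK cell markers 1 of 2 tested fell. Fibroblast and pericyte markers rose in 2 of 12 and astrocyte markers in 2 of 10, with 0 falling. Of dendritic cell markers 2 of 6 rose and 2 fell. Of oligodendrocyte markers 1 of 10 rose and 1 fell, and of neutrophil markers 1 of 6 rose. Nothing is read from these counts of 1 or 2 genes. The summed level of 14 markers of monocyte-derived macrophages was 1525 to 2176 CPM at 3 days, against 260 to 504 CPM in sham libraries. Most of the 3-day sum was Fn1 and Lyz2. Of 12 tested 7 rose and 0 fell, against 10.9% of all tested genes called higher. F13a1 averaged 53.5 CPM at 3 days and 78.6 CPM in sham, and Itga4 averaged 84.1 and 82.9 CPM. Of their defining markers, Ly6c2 had 32 counts at 3 days and 1 in sham, and F10 had 51 at 3 days and 0 in sham. The sum of 12 endothelial markers was 270 to 683 CPM at 3 days, against 44.6 to 188 CPM in sham. Of these, 12 of 12 rose, against the same 10.9%. The sum of 12 microglia markers was 3791 to 4457 CPM at 3 days, against 5503 to 7075 CPM in sham. Of these, 5 of 12 fell and 0 rose, where 3695 of 18451 tested genes were called in either direction. The part of these cells in the Schlafen levels was not tested. At 7 days, when Slfn5 and Slfn2 were called above sham, the endothelial sum was 50.5 to 67.5 CPM and the monocyte-derived sum was 436 to 775 CPM. At 14 days, when Slfn5 was called, they were 404 to 426 CPM and 928 to 1025 CPM, both above all sham libraries. Most of the monocyte-derived sum at 14 days was again Fn1 and Lyz2, with means of 440.5 and 300.4 CPM. Of 12 tested monocyte-derived markers 4 rose and 2 fell. At 14 days 5.02% of all tested genes were called higher, and 1811 of 18451 were called in either direction. Vcan and F13a1 averaged 22.4 and 30.6 CPM at 14 days, against 51.4 and 78.6 CPM in sham.

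The 3-day libraries did not fall in 1 order for all genes. Replicate 1 had the lowest Slfn4 (16.4 against 81.2 and 68.4 CPM), Slfn1, Slfn2, Slfn3 and Slfn10-ps of the 3, while Slfn5, Slfn8 and Slfn9 were lowest in replicate 2. Its monocyte-derived sum was 2110 CPM against 2176 and 1525 CPM in replicates 2 and 3, its mitosis sum was 2520 against 2558 and 2298 CPM, and its interferon-stimulated sum was 3990 against 3837 and 5261 CPM. The neutrophil list, 14 genes, was at 986 CPM in replicate 1 against 1175 and 964 CPM. Marker sums that were lowest in replicate 1 were those of endothelial cells (270 against 304 and 683 CPM), fibroblasts and pericytes (325.5 against 367 and 961 CPM), border-associated macrophages (905 against 1107 and 1088 CPM), T and NK cells (41.0 against 75.2 and 67.1 CPM), B cells (187.9 against 214.7 and 225.5 CPM) and neurons (832.5 against 977.7 and 920.5 CPM). Their part in the order of the Schlafen levels was not tested. Most of the neutrophil sum was Csf3r, and the neutrophil gene Ly6g had 1 count over the 3 libraries at 3 days.

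Across the 12 libraries, which fall into 4 groups and differ in depth, the members' log2 CPM went together to unequal degrees. Pearson's r was 0.96 for Slfn4 with Slfn1 and 0.46 for Slfn5 with Slfn1, the highest and lowest of the 15 pairs. Among 9405 other genes with a mean of at least 10 CPM, those most like Slfn5 included Nlrc5 (r = 0.97), Usp18 (0.97), Trim25 (0.96) and Ifit3 (0.95). Those most like Slfn8 were Stat2 (0.94), Cul9, Ddx58, Pan2 and Trim34a (0.91). For Slfn9 they were Ddx60 (0.96), Spred3, Setdb2, Trpv4 and Ncaph (0.93), and for Slfn2 they were Pola2 (0.97), Mx1, Cmtm3, Tnf and Txnrd1 (0.96). For Slfn4 they were Oas2 (0.95), Cmpk2, Smarcc2, Sgol1 and Mdm1 (0.94), and for Slfn1 Smarcc2 (0.93), Rrp1b, Cmpk2, Ncapd3 and Setdb2 (0.89). Of the 27 different genes found in this way, 6 are on the interferon-stimulated list, which has 28 genes in all, while the candidates numbered 9405. The members were picked with the levels behind these correlations in view, so nothing is read from this count. Without sham replicate 4, 3 of 5 genes stayed for Slfn4, Slfn5, Slfn8 and Slfn9, 1 for Slfn1 and 0 for Slfn2.

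Parts of these genes also occur in other genes, so reads from those parts may match more than 1 gene. Of all windows of 50 bases in the longest transcript, 15.4% for Slfn8, 11.9% for Slfn9, 11.8% for Slfn5, 11.6% for Slfn4, 4.27% for Slfn2 and 0.606% for Slfn1 also occur in transcripts of another gene. Slfn8 and Slfn9 share theirs mainly with Slfn10-ps, and Slfn4 with Slfn3. Of the 700 shared windows of Slfn5, 467 are with Slfn5os, and the next most shared genes are outside the family. Slfn5 shares 559 exonic bases with Slfn5os on the other strand, which had at most 3 counts in any group. How such reads were counted is not given in the sources used here, so values of Slfn8, Slfn9, Slfn10-ps, Slfn4 and Slfn3 are uncertain to that extent.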

How the data were processed

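Nuclear RNA was sequenced in 12 libraries (3 per group). Per the labels' protocols, RNA was amplified by single-primer isothermal amplification. The submitters' processing notes name featureCounts 1.4.6-p3 and the genome builds mm10 and GRCm38; for the aligner, the strand setting and reads that match several places, nothing is given in the sources used here. Raw counts per Ensembl gene and RPKM (counts over gene length and library total) are both as deposited by the authors.

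Counts were analysed with edgeR 4.0.16 in R 4.3.3: filterByExpr kept 18451 genes (99.6% of counts), TMM scaling, 1 quasi-likelihood model of the 4 groups, and Benjamini-Hochberg adjustment over all tested genes at 0.05. The SE is the log2 fold change over the square root of F. The fit was also run on counts simulated from its own model, which does not test whether that model suits these data. Gene models came from GENCODE M21, and sequences and positions of promoters from RefSeq GRCm38.p6 (6 of 6 members matched). The members and lists were chosen with earlier results of these data known. All members and Slfn genes are named, up to 4 genes of a pathway list by smallest adjusted p (otherwise up to 2 by level), up to 3 marker genes of a list by level (defining markers near 0 in addition), neighbours past the threshold at 3 days, and 5 genes most like each member (prior count 2). A few genes picked by this rule are left out of the text. The alternatives were median-ratio factors, DESeq2 1.42.0, no filter or a stricter one (1 CPM in 3 libraries and a mean of 5 CPM), limma 3.58.1 on log2 of the deposited RPKM plus 1 or plus 0.1, the replicate number as a term, the 2 groups alone, and each library left out. Identity between the proteins was planned and not run.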

Additional observations from a re-analysis of the deposited data

Results flagged for a closer look

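The change of several members against sham differed between times, by the direct edgeR comparison of the later with the earlier time. Between 7 and 3 days the log2 fold change of Slfn4 was -3.84 and that of Slfn1 was -2.04. Between 14 and 3 days it was -5.33 for Slfn4, -3.38 for Slfn1, -1.64 for Slfn9, -1.20 for Slfn2 and -0.61 for Slfn8. The members were picked on such levels, so these values are descriptions.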

How the results depend on the processing

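Of 719 alternative values of 36 member fold changes, 657 kept their direction and side of the threshold, 23 were no longer called, 27 became called and 12 changed sign; Slfn4 at 14 days against sham had too few counts to be fitted in the 2 groups alone. All sign changes were in 14 days against sham, where no changed value was called. Slfn9 was 0.023 with no filter, 0.12 and 0.15 in limma on log2 RPKM with pseudocounts 1 and 0.1, 0.0229 with the replicate block, and between -0.21 (without sham replicate 2) and 0.31 (without sham replicate 4) with 1 library left out. Slfn8 was 0.042 and 0.043 in the limma fits. Slfn4 was 0.16 with the replicate block, 0.20 without sham replicate 4, and between -1.09 (without 14-day replicate 1) and 0.31 (without 14-day replicate 2) with 1 library left out. The cause was not tested.

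Counts of members called moved with DESeq2 to 3 at 7 days and 2 at 14 days against sham. DESeq2 also called 4 in 7 against 3 days, 6 in 14 against 3 days and 1 in 14 against 7 days. For the other settings below, smaller moves are not all listed. With no filter 4 members were called at 7 days, 2 at 14 days and 2 in 14 against 7 days. With limma on RPKM 3 were called in 14 against 3 days (both pseudocounts). With the 2 groups alone 1 was called at 7 days, 4 in 7 against 3 days and 1 in 14 against 7 days, and of the interferon-stimulated genes 9 at 7 days and 4 at 14 days. Neighbours called at 3 days were 0 with no filter, both limma fits, the replicate block and the 2 groups alone, and at 14 days 1 with DESeq2 and both limma fits. Leaving out 1 library gave 5 to 6 members at 3 days, 1 to 3 at 7 days, 1 to 2 at 14 days, 1 to 4 in 7 against 3 days, 3 to 6 in 14 against 3 days and 0 to 1 in 14 against 7 days. It gave 25 to 28, 12 to 20 and 4 to 12 interferon-stimulated genes at 3, 7 and 14 days, and 0 to 1 neighbours at each time. Counts not divided by length gave mean shares over 12 libraries of 1.17% for Slfn1, 4.84% for Slfn2, 17.0% for Slfn5 and 9.01% for Slfn9, against 2.55, 11.9, 11.1 and 6.21% in RPKM. Same-numbered libraries did not deviate together (r = -0.298 to 0.0693 over 13 pairs), so numbers were not taken as pairs, and with the replicate block 6, 2 and 1 members were called at 3, 7 and 14 days against sham and 3 in 7 against 3 days. Slfn4 and Slfn1 rest on few counts at 14 days (1 to 16 and 2 to 13 per library), where changes are not detectable at this depth unless large.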
